A study of Mus musculus with 8 samples.

Results

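The genes that encode the proteins of the cytosolic and of the mitochondrial ribosome were followed in the cerebral cortex of mice able to delete the kinase TAK1 from endothelial cells. Members were taken by gene symbol from the deposited table, as the Rpl and Rps genes with Rpsa and Rplp0 to Rplp2 for the cytosolic ribosome and the Mrpl and Mrps genes for the mitochondrial one, leaving out pseudogenes with -ps names. The rule found 151 genes of 28732, of which 79 were cytosolic and 72 mitochondrial. The rule reads symbols and no measured value. One member, Rpl32l, is annotated as a processed pseudogene.

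The study compared whole-cortex RNA of 4 control and 4 knockout libraries. The mice were at postnatal day 90 in the labels and aged 12 to 14 weeks in the series text. Controls carried floxed alleles only (Tak1fl/fl) and knockouts carried the same alleles with the recombinase (Cdh5-CreER::Tak1fl/fl), and both groups had received tamoxifen. The Cdh5 promoter drives the inducible recombinase in endothelial cells, and the RNA came from all cells of the cortex. A library carries its group and the number of its column in the deposited table, so that controls run from 1 to 4 and knockouts from 2 to 5. Whether the libraries of a group come from separate mice is not stated in the labels, and p-values rest on a spread among libraries that may be technical.

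The cytosolic ribosome translates messages exported from the nucleus, and its proteins are encoded by nuclear genes that are among the strongest transcribed in most cells. Many of these messages start with a run of pyrimidines, the terminal oligopyrimidine motif, through which the mTOR pathway and the protein LARP1 control their translation. The mitochondrial ribosome translates the few messages made from mitochondrial DNA, which encode subunits of the respiratory chain, and all of its proteins come from nuclear genes too. Cytosolic ribosomal protein genes have left large numbers of processed pseudogenes in mammalian genomes, and short reads from the gene and from its copies can be alike.

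Depth was 13483354 to 17728963 counts assigned to genes per library. Of all genes 15564 passed the expression filter and were tested, and 535 were higher and 466 lower in knockouts at an adjusted p under 0.05 (edgeR, quasi-likelihood). Map3k7, the gene of TAK1, averaged 40.02 ± 2.89 CPM over controls and 38.8 ± 3.16 CPM over knockouts (SD, n = 4 each; edgeR adjusted p = 0.843). Summed markers of the choroid plexus, a tissue of the brain ventricles, lay between 12.04 and 186 CPM for controls and between 375 and 536 CPM for knockouts, with no overlap, and 3 of its 6 tested markers rose. The summed markers of the other cell types and regions examined overlapped between groups. Over all tested genes 6.43% passed, and 4 single markers of these lists did. Higher were Aldh1l1, 1 of 4 tested astrocyte markers, Cdh5, 1 of 3 of endothelium, and Shox2, 1 of 5 of thalamus. Neurod6, 1 of 6 of excitatory neurons, was lower. Of 3 inhibitory neuron, 3 oligodendrocyte, 4 microglia, 4 striatum and 5 blood markers tested, 0 passed. Fold changes had both signs within the astrocyte, thalamus and excitatory neuron lists, and all 3 endothelial ones were positive. Mitochondrial ribosomal RNA mt-Rnr1 held 1.36 to 2.18% of all counts in controls and 3.03 to 4.19% in knockouts. The more abundant mitochondrial ribosomal RNA mt-Rnr2 held 17.34 to 23.99% in controls and 23.86 to 25.24% in knockouts, which overlapped. Its level did not pass (log2 fold change 0.32 ± 0.11, edgeR adjusted p = 0.0989). The part of these differences in the results below was not tested.

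Few ribosomal protein genes differed between the groups. Among 72 tested cytosolic genes 0 were higher and 1 was lower in knockouts, which is 1.39% of them. Among 71 tested mitochondrial genes 1 was higher and 4 were lower, which is 7.04%. The background over all tested genes was 6.43% in either direction, 3.44% higher and 2.99% lower, so the mitochondrial share lies near the background and the cytosolic share below it. DESeq2, which called more genes over all (1744 against 1001), called 5 cytosolic genes, 3 higher and 2 lower, and the same 5 mitochondrial genes. The authors' deposited comparison, also with 1744 calls, has a background of 10.2%, above the 6.43% of edgeR. The 8 members that were not tested, for low counts, were the cytosolic Rpl10a, Rpl11, Rpl17, Rpl23a, Rpl24, Rpl32l and Rpl3l and the mitochondrial Mrps18b. The labels do not say whether the counting used strand, so reads of a gene and of one on the opposite strand over the same bases may be mixed.

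**Figure D1:**
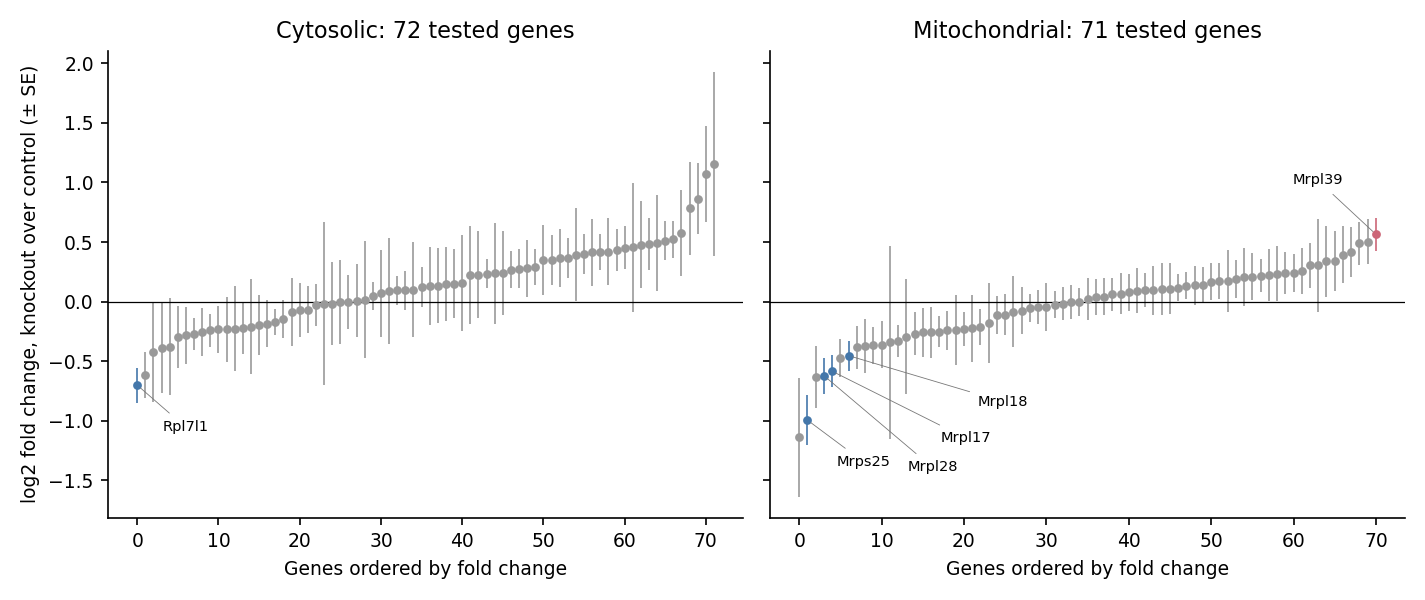
Log2 fold change of knockout over control (vertical axis, bars give the SE) for each tested gene, ordered from lowest to highest, in the cytosolic (left, 72 genes) and mitochondrial (right, 71 genes) sets. Blue points passed as lower, the red point passed as higher and grey points did not pass an adjusted p of 0.05. Gene names mark the 6 genes that passed.

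The median log2 fold change was 0.12 over the cytosolic genes, with 45 positive and 27 negative values, and 0.02 over the mitochondrial genes, with 36 positive and 35 negative values. Over all tested genes it was -0.0021, and 49.8% of values were positive, against 62.5% of the cytosolic ones. Cytosolic values were also less precise, with a median SE of 0.27, against 0.18 for the mitochondrial genes and 0.18 for all tested genes. An unadjusted p under 0.05 was reached by 12 cytosolic genes (16.7%; 10 higher and 2 lower) and by 11 mitochondrial genes (15.5%; 3 higher and 8 lower), against 25.8% of all tested genes. Both shares are below the background. The large and small subunit were alike in the cytosolic set, with medians of 0.12 over 43 genes and 0.13 over 29. By symbol, the mitochondrial large subunit had a median of -0.02 over 46 genes and the small subunit of 0.07 over 25.

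The size of the cytosolic median depended on single libraries. Relative to the control mean of each gene, the median cytosolic gene stood 0.38 higher on the log2 scale in knockout 3 and 0.10 lower (-0.10) in knockout 4, with 0.09 in knockout 2 and 0.03 in knockout 5. The control libraries ran from -0.08 to 0.16, so knockouts 2 and 5 lay within the control range, knockout 4 just below it and knockout 3 above it. Without knockout 3 the cytosolic median over tested genes was 0.02, and without knockout 4 it was 0.25. The median mitochondrial gene stood at -0.07 in knockout 2, 0.15 in knockout 3, -0.10 in knockout 4 and 0.05 in knockout 5, with controls from -0.07 to 0.05.

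**Figure D2:**
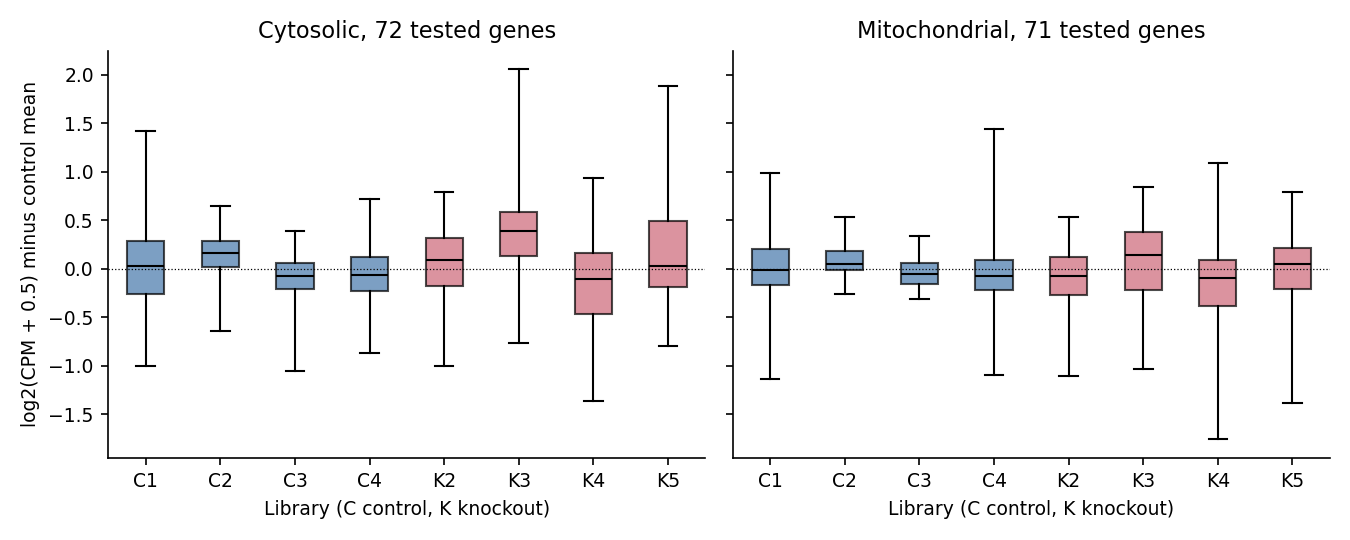
Log2(CPM + 0.5) minus the gene's control mean (vertical axis) in each library (C control, blue; K knockout, red; labelled with the number in the deposited table), for tested cytosolic (left) and mitochondrial (right) genes. Boxes span the quartiles, lines mark medians and whiskers reach the lowest and highest gene; the cytosolic median is highest in knockout 3, at 0.38.

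Summed over all 79 members, cytosolic ribosomal protein genes held 972, 1031, 866 and 843 CPM in controls 1 to 4 and 936, 1149, 822 and 1113 CPM in knockouts 2 to 5. The groups overlapped, with means of 928 ± 88.8 and 1005 ± 154 CPM (SD, n = 4 each). Summed over all 72 members, the mitochondrial set held 1180, 1138, 1019 and 963 CPM in controls 1 to 4 and 959, 1048, 917 and 1006 CPM in knockouts 2 to 5. These overlapped too, with means of 1075 ± 101 and 983 ± 56.9 CPM. In total RNA of a tissue, fewer cells of a type and less RNA per cell cannot be told apart.

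The ratio of the cytosolic to the mitochondrial sum, which does not depend on how libraries are scaled, was 0.824, 0.906, 0.849 and 0.875 in controls 1 to 4 and 0.976, 1.10, 0.896 and 1.11 in knockouts 2 to 5. Knockouts 2, 3 and 5 lay above every control and knockout 4 lay within the control range. Knockouts 3 and 5, with the highest ratios, also held the most Gm42418, a gene model read here as a sign of RNA quality. It took 0.669 and 2.31% of all counts there, against 0.0337 to 0.103% in the other 6 libraries. Gm26917 and Malat1, listed for the same purpose, did not follow this pattern. Gm26917 took 0.292% in knockout 3 and 0.418% in knockout 5, against 0.315 to 0.462% in the others. Malat1 took 0.714% in knockout 3 and 0.161% in knockout 5, against 0.296 to 0.643% in the others. The summed microglia markers of knockouts 3 and 5 were the lowest, at 46.4 and 65.6 CPM against 100.6 to 134 CPM in the others. The part of these RNAs and markers in the ratio was not tested. The mean ratio was 0.864 ± 0.035 in controls and 1.02 ± 0.10 in knockouts (SD, n = 4 each), 1.18-fold higher. Leaving out the 5 most abundant members of each set brought the fold to 1.07, with overlapping ratios of 0.725 ± 0.030 and 0.780 ± 0.064. The mitochondrial sums were then 808 ± 35.6 CPM in controls and 801 ± 48.0 CPM in knockouts, and the cytosolic sums 587 ± 49.5 and 627 ± 86.3 CPM. Those 5 mitochondrial genes were Mrps25, Mrpl18, Mrps5, Mrpl52 and Mrps30, of which Mrps25 and Mrpl18 passed as lower. They held 20.2 to 30.2% of their set's sum in controls and 17.9 to 19.2% in knockouts, without overlap. The corresponding 5 cytosolic genes held 35.4 to 38.2% and 35.8 to 40.1%, which overlapped.

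**Figure D3:**
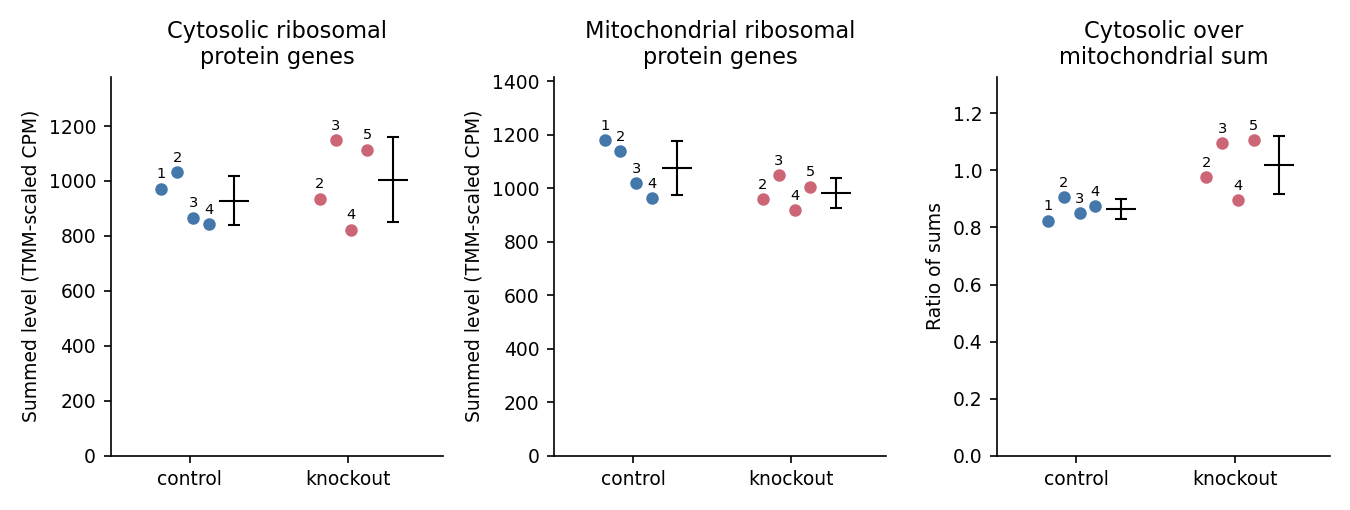
Summed level of the 79 cytosolic (left) and 72 mitochondrial (middle) ribosomal protein genes in TMM-scaled CPM, and the ratio of these sums (right), by group. Each point is a library, labelled with its number in the deposited table, and the bar with whiskers gives mean ± SD (n = 4). The ratio of knockout 4, 0.896, lies within the control range of 0.824 to 0.906.

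The 2 sets together held little of the sequenced RNA. The cytosolic members took 0.0861 to 0.108% of all counts in controls and 0.0837 to 0.106% in knockouts, and the mitochondrial members 0.0984 to 0.122% and 0.0933 to 0.0959%. On this scale, which does not correct for the counts taken by a few abundant RNAs, the mitochondrial shares did not overlap between groups. The median cytosolic member stood at 2.23 CPM per kb of exon and the median mitochondrial member at 4.35. Among tested members the medians were 3.12 and 4.35 CPM per kb, above 50.1% and 58.6% of all tested genes. Per kb of annotated exon, cytosolic ribosomal protein genes were thus counted at the level of an ordinary gene in these libraries. The annotated exons had a median of 1770 bases in the cytosolic and 2573 in the mitochondrial set, against 471 and 585 coding bases. Levels per kb therefore depend on the length used.

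The highest cytosolic levels belonged to 4 genes, and their levels differed widely from those of their partners in the same particle. Rplp1, a protein of the P stalk that recruits elongation factors, stood at 114 CPM per kb, Rpl4, whose protein lines the exit tunnel, at 79.2, Rps15 of the small subunit at 69.2 and Rpl8 of the large subunit at 46.6. Rps6, the small-subunit protein phosphorylated by S6 kinases, stood at 0.996 CPM per kb, Rpl3 at 1.73, and Rpsa at 2.13. Mrpl18, the most abundant mitochondrial member, reached 46.9 CPM per kb.

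These levels went with how much coding sequence a gene shares with other genes. For the longest coding sequence of each gene, every run of 50 bases was looked up in the transcripts of all other annotated genes, pseudogenes included. The median share found elsewhere was 89.2% over 78 cytosolic genes and 0% over 72 mitochondrial genes. All runs were shared in 24 cytosolic genes and in 0 mitochondrial ones, while none were shared in 2 cytosolic genes and in 40 mitochondrial ones. A cytosolic gene shared runs with a median of 8 annotated pseudogenes, and Rpl7a with 120, the highest number among members.

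The 24 cytosolic genes that share every run had a median of 0.873 CPM per kb, against 4.02 for the 52 that share some. Across the 72 tested cytosolic genes the level per kb and the shared percentage had a Spearman rho of -0.57, and across 71 mitochondrial genes of -0.17. These are descriptions across genes of the same libraries, with no p. Genes with every run shared had a median fold change of 0.11 and a median SE of 0.33. How the authors' counting treated reads that match several places is not stated, and counts of the genes with shared runs are uncertain for that reason.

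**Figure D4:**
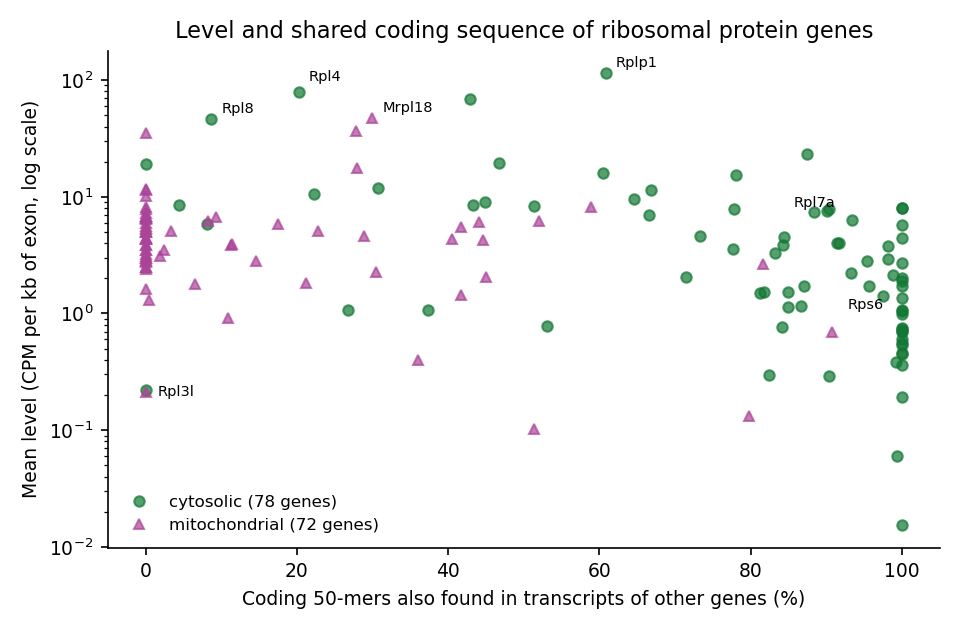
Mean level over 8 libraries in CPM per kb of exon (vertical axis, log scale) against the percentage of coding 50-base runs that also occur in transcripts of other genes (horizontal axis), for cytosolic (green circles, 78 genes) and mitochondrial (purple triangles, 72 genes) ribosomal protein genes. Most cytosolic genes crowd at the right, with a median of 89.2%, and the mitochondrial genes at the left.

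Pseudogenes were themselves counted. The 151 genes with -ps names of cytosolic ribosomal proteins summed to between 231 and 299.6 CPM in single controls and between 199 and 314 CPM in single knockouts. Set against the cytosolic sum of the same library they came to 27.4 to 30.3% in controls and 23.6 to 27.4% in knockouts. The lowest control stood just above the highest knockout, so the groups did not overlap.

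Rpl7l1 was the cytosolic gene that fell. It encodes a paralogue of the large-subunit protein RPL7, known in human cells from precursors of the large subunit in the nucleolus. The gene (ENSMUSG00000063888) lies at chr17:46773907-46782672 (GRCm38) on the minus strand. It stood at 51.4, 50.9, 41.6 and 38.7 CPM in controls 1 to 4 and at 22.3, 26.4, 31.1 and 32.5 CPM in knockouts 2 to 5, without overlap. The log2 fold change was -0.70 ± 0.15 (SE; edgeR adjusted p = 0.0176). Over all genes 1001 passed, and 325, 128 and 370 without control 1, control 2 and knockout 2 in turn. The call of Rpl7l1 did not hold without control 1 (edgeR adjusted p = 0.0578), control 2 (0.0748) or knockout 2 (0.0534). Its paralogue Rpl7, the ribosomal protein itself, averaged 29.6 ± 2.19 CPM over controls and 31.6 ± 3.96 CPM over knockouts (SD, n = 4 each; log2 fold change 0.09 ± 0.12, edgeR adjusted p = 0.678).

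Other cytosolic genes with a small p did not pass. Rps15a, a protein of the small subunit, stood at 24.96, 15.7, 17.1 and 22.1 CPM in controls 1 to 4 and at 31.4, 27.9, 26.1 and 29.2 CPM in knockouts 2 to 5. Its groups did not overlap, and the fold change was 0.52 ± 0.15 (edgeR adjusted p = 0.0596). Rpl7a, a large-subunit protein, stood at 6.19, 7.60, 5.47 and 12.9 CPM and at 10.4, 11.6, 14.98 and 21.4 CPM, with control 4 inside the knockout range (0.86 ± 0.30, edgeR adjusted p = 0.0995). Of the coding runs of Rps15a 84.3% occur in other genes, and of those of Rpl7a 93.4%.

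The authors' deposited table gives an adjusted p under 0.05 to 5 cytosolic genes, 3 higher and 2 lower, among them Rps15a (0.0259) and Rpl7a (0.0312) higher and Rpl7l1 (0.000685) lower. The authors' deposited table holds 10.2% of genes past that threshold in either direction, 5.34% higher and 4.91% lower. In it 70 cytosolic and 66 mitochondrial genes did not pass. For the mitochondrial set the authors' deposited table has the 5 genes that also passed here, in the same directions.

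The most abundant cytosolic genes did not pass. Rpl4 stood at 159, 157, 132 and 129 CPM in controls 1 to 4 and at 152, 216, 128 and 199 CPM in knockouts 2 to 5, so knockouts 3 and 5 lay above the controls and knockouts 2 and 4 did not (0.27 ± 0.15, edgeR adjusted p = 0.303). Rps15 stood at 29.6, 45.1, 36.3 and 38.4 CPM and at 46.6, 48.9, 41.8 and 62.03 CPM (0.41 ± 0.15, edgeR adjusted p = 0.106), with knockout 4 alone inside the control range. Rpl8 stood at 62.3 ± 5.68 and 64.3 ± 8.10 CPM (SD, n = 4 each), and its fold change was 0.05 ± 0.12.

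The P stalk proteins, which form the binding site of elongation factors, gave no common picture. Rplp1 had a fold change of 0.28 ± 0.24 (edgeR adjusted p = 0.509) and Rplp2 of 0.12 ± 0.17 (0.703). Rplp0, the base of the stalk, stood at 26.9, 37.5, 33.9 and 14.3 CPM in controls 1 to 4 and at 28.4, 29.5, 9.95 and 29.9 CPM in knockouts 2 to 5, low in control 4 and knockout 4 (-0.21 ± 0.40, edgeR adjusted p = 0.792). Rpsa, also known as a laminin receptor, had a fold change of 0.10 ± 0.16 and Rps6 of 0.01 ± 0.31, and neither passed.

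Some cytosolic proteins have a paralogue that can take their place in other tissues. The muscle paralogue Rpl3l had 0.109 to 0.759 CPM in single libraries and was not tested, while Rpl3 stood at 4.598 ± 1.45 and 6.404 ± 3.83 CPM (SD, n = 4 each; adjusted p = 0.446). Rpl22 and Rpl22l1 had fold changes of -0.17 ± 0.11 and -0.20 ± 0.25, and Rps27 and Rps27l of -0.02 ± 0.68 and 0.22 ± 0.41. Rpl39, a protein of the exit tunnel, had a fold change of 1.07 ± 0.41 at levels of 0.314 to 2.10 CPM (edgeR adjusted p = 0.120), and Rps4x one of -0.24 ± 0.14. None of these passed.

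Of the 5 mitochondrial genes that passed, 4 fell. Mrps25 encodes a small-subunit protein found only in mitochondrial ribosomes. The gene (ENSMUSG00000014551) lies at chr6:92169525-92184033 on the minus strand. It stood at 75.4, 65.6, 49.0 and 39.0 CPM in controls 1 to 4 and at 31.5, 33.8, 28.6 and 21.0 CPM in knockouts 2 to 5. The groups did not overlap, and controls 1 and 2 stood furthest above the knockouts. The fold change was -0.995 ± 0.21 (edgeR adjusted p = 0.0208). Exons of Nr2c2, a nuclear receptor gene on the other strand, lie over 69.8% of the exon bases of Mrps25, and Nr2c2 averaged 96.1 ± 13.4 CPM over controls and 106 ± 9.85 CPM over knockouts (SD, n = 4 each; edgeR adjusted p = 0.487).

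Mrpl17, Mrpl28 and Mrpl18 encode large-subunit proteins with bacterial relatives. Mrpl17 (ENSMUSG00000030879, chr7:105803206-105811099, minus strand) stood at 31.3, 30.3, 28.5 and 23.6 CPM in controls 1 to 4 and at 21.5, 16.2, 19.8 and 18.1 CPM in knockouts 2 to 5. Mrpl28 (ENSMUSG00000024181, chr17:26123500-26126613, plus strand) stood at 20.6, 18.7, 14.2 and 14.9 CPM in controls 1 to 4 and at 11.2, 11.8, 10.1 and 11.3 CPM in knockouts 2 to 5. Mrpl18 (ENSMUSG00000057388, chr17:12911349-12916345, minus strand) stood at 89.8, 83.5, 67.5 and 62.5 CPM in controls 1 to 4 and at 56.6, 50.3, 56.5 and 57.9 CPM in knockouts 2 to 5. In each of the 3 genes the groups did not overlap and controls 1 and 2 held the highest values. The fold changes were -0.58 ± 0.14 for Mrpl17, -0.62 ± 0.15 for Mrpl28 and -0.45 ± 0.13 for Mrpl18, with edgeR adjusted p of 0.0265, 0.0313 and 0.0490. Exons of Tcp1 on the other strand cover 10.1% of Mrpl18, and 29.96% of its coding runs occur in other genes.

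Mrpl39, a large-subunit protein specific to mitochondria, was the member that rose. The gene (ENSMUSG00000022889) lies at chr16:84717576-84735742 on the minus strand. It stood at 16.3, 16.7, 15.9 and 15.9 CPM in controls 1 to 4 and at 23.6, 29.0, 19.2 and 24.03 CPM in knockouts 2 to 5. The groups did not overlap, and knockout 4 was nearest to the controls. The fold change was 0.56 ± 0.14 (edgeR adjusted p = 0.0319).

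None of the 5 mitochondrial calls held without control 1, control 2 or knockout 5. The adjusted p then ran from 0.055 for Mrps25 without control 1 to 0.153 for Mrpl18 without control 2. Over all genes 1001 passed with every library in, 325 without control 1, 128 without control 2 and 155 without knockout 5. The count over all genes was 370 without knockout 2 and 467 without control 3. Without knockout 2 the call of Mrpl17 alone held, and without control 3 those of Mrps25 and Mrpl28. Mrpl39 also lost its call without control 4 (adjusted p = 0.0526), and Mrpl18 without knockout 3 (0.077), with upper-quartile factors (0.0594) and in limma voom (0.0574). Directions did not change. Of the members that passed, Rpl7l1, Mrpl28 and Mrpl18 lie on chromosome 17, where 9 members were tested and 6.79% of all 619 tested genes passed. Groups did not overlap in 2 tested cytosolic genes (2.78%; Rpl7l1 and Rps15a) and in 7 mitochondrial genes (9.86%; the 5 that passed, Mrps24 and Mrpl34), against 16.2% of all tested genes. Split by direction, the background was 8.58% for knockout higher and 7.65% for knockout lower.

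**Figure D5:**
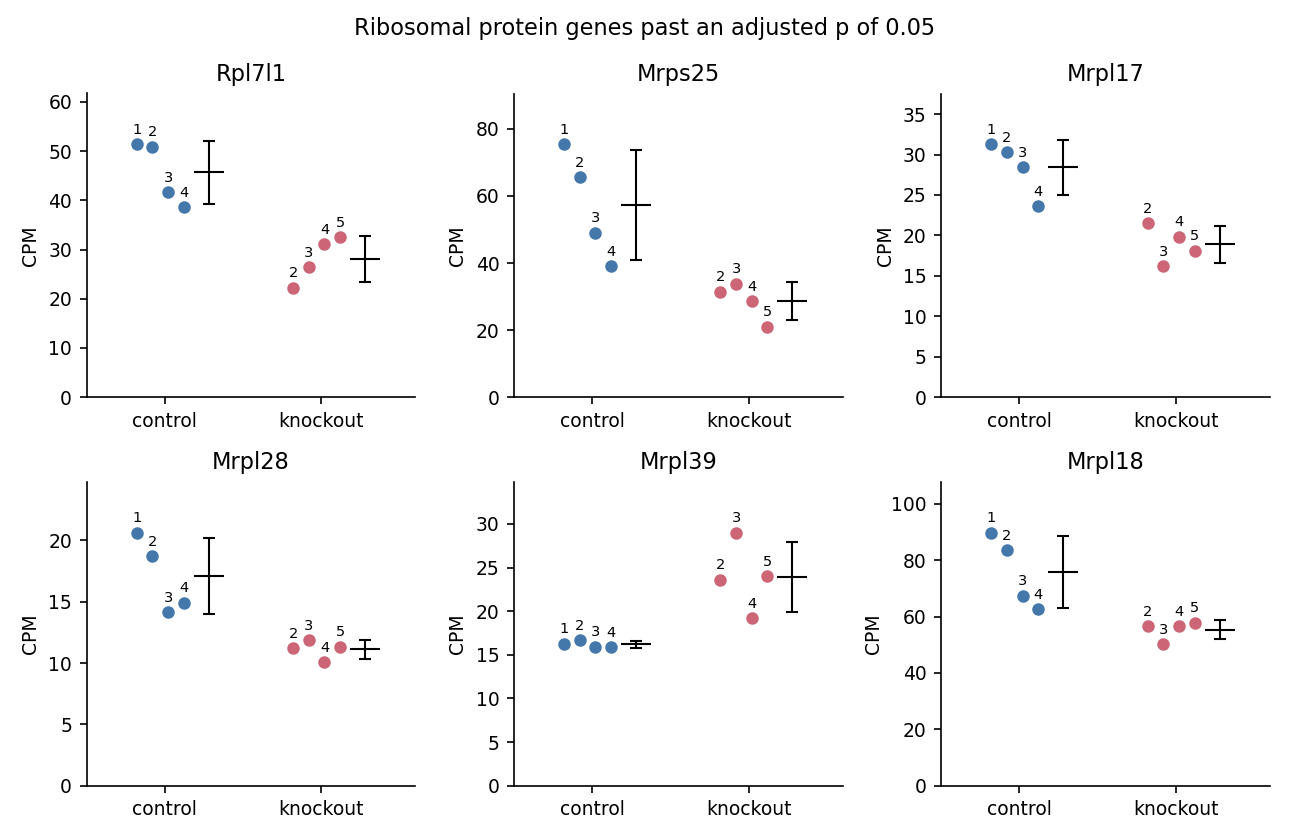
Level in TMM-scaled CPM (vertical axes start at 0) of the 6 ribosomal protein genes that passed an adjusted p of 0.05, by group. Each point is a library, labelled with its number in the deposited table, and the bar with whiskers gives mean ± SD (n = 4). In all 6 panels the control and knockout points do not overlap, and Mrpl39 is the one with knockouts above controls.

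Other mitochondrial genes with a small p did not pass. Mrps21 stood at 18.5, 16.7, 14.3 and 11.7 CPM in controls 1 to 4 and at 11.02, 12.5, 10.4 and 10.2 CPM in knockouts 2 to 5 (-0.47 ± 0.16, edgeR adjusted p = 0.0872). Mrps24 (0.49 ± 0.18, edgeR adjusted p = 0.113), Mrpl11 (0.50 ± 0.19, 0.117) and Mrpl34 (-0.63 ± 0.26, 0.147) went in both directions. Mrpl52 had the lowest fold change of any member, -1.14 ± 0.50, at 93.9, 58.3, 41.1 and 21.9 CPM in controls and 21.6, 22.8, 13.6 and 39.8 CPM in knockouts. Control 4 lay within the knockout range and knockouts 3 and 5 within the control range (edgeR adjusted p = 0.206). Mrps5 stood at 60.4, 45.5, 36.7 and 36.6 CPM and at 32.0, 37.1, 36.5 and 33.1 CPM (adjusted p = 0.158), and again control 1 was the highest library. Mrps30, which carries a small-subunit name although its protein sits in the large subunit, stood at 35.5 ± 1.25 and 38.5 ± 4.56 CPM (SD, n = 4 each). Mrps18a, also a large-subunit protein, had a fold change of -0.26 ± 0.21.

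Promoters were compared because both sets are known targets of ETS-family factors and because the pyrimidine run at the transcript start marks the cytosolic set. RefSeq promoters (GRCm38.p6, 250 bases before to 50 after the start) were matched for 59 cytosolic and 63 mitochondrial members. A gene was counted once, if any of its promoters matched. The ETS core CCGGAA, read on both strands, occurred in 54.2% of these cytosolic and 55.6% of these mitochondrial genes. It occurred in 16.7% of all 27025 genes with a promoter, whether or not they were tested here. A run of at least 8 pyrimidines (C or T) was sought within 20 bases on either side of the start, read along the gene. It occurred in 49.2% of cytosolic genes, 15.9% of mitochondrial genes and 18.4% of all genes with a promoter. The ETS core and the pyrimidine run can share bases. A match is a description of the letters and shows no binding.

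The windows from 40 bases before to 30 bases from the start are shown for the 6 genes that passed and for 3 cytosolic genes with a pyrimidine run. Capitals mark the ETS core or its reverse complement in the first 6 and the pyrimidine run in the last 3, each read 5′ to 3′ along the gene.
Rpl7l1 (chr17:46782627-46782696, minus): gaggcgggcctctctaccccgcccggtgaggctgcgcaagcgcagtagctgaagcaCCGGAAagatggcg
Mrps25 (chr6:92183994-92184063, minus): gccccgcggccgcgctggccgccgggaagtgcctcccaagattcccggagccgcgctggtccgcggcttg
Mrpl17 (chr7:105811058-105811127, minus): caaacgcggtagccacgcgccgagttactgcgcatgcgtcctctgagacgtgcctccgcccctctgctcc
Mrpl28 (chr17:26123463-26123532, plus): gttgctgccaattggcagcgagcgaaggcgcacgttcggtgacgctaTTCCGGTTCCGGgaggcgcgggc
Mrpl39 (chr16:84735215-84735284, minus): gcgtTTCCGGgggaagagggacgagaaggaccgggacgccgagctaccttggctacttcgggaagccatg
Mrpl18 (chr17:12916062-12916131, minus): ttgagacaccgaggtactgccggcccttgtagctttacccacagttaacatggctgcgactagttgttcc
Rpl4 (chr9:64173347-64173416, plus): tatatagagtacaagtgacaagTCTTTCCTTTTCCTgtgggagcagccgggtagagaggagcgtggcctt
Rps15a (chr7:118116118-118116187, minus): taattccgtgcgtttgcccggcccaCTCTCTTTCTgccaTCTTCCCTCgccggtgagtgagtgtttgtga
Rpl7a (chr2:26910767-26910836, plus): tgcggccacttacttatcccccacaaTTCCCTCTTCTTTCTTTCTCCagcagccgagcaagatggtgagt
The core lies inside the printed window in Rpl7l1, Mrpl28 (a pair side by side) and Mrpl39, elsewhere in the 300-base promoter in Mrpl17 and Mrpl18, and not in the promoter of Mrps25. None of the 6 genes that passed, Rpl7l1 of the cytosolic set included, has the pyrimidine run.

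Genes that work with the ribosome were followed from lists that were chosen with earlier results of these data known. The shares called in these lists are therefore descriptions and no test of the lists. Of 18 genes listed for messages with the pyrimidine motif, most of them translation factors, 3 rose and 0 fell (16.7% against 6.43% of all tested genes). The list median was 0.25 against -0.0021. The list also holds genes of other kinds, such as Npm1, Nap1l1 and Hnrnpa1. Their motif was taken as known and is not reported here. Eif3e, a subunit of an initiation factor, stood at 31.2, 30.4, 31.7 and 34.9 CPM in controls 1 to 4 and at 52.8, 50.04, 47.3 and 59.9 CPM in knockouts 2 to 5 (0.71 ± 0.11, edgeR adjusted p = 0.00687). Eef1a1, the factor that brings aminoacyl-tRNA to the ribosome, had a fold change of 0.63 ± 0.15 and Btf3, part of the nascent chain complex, of 0.74 ± 0.20. Of 27 initiation factors Eif2b1 (0.61 ± 0.15) and Eif1 (0.49 ± 0.13) rose and 0 fell, 7.41% of the list and near the share of all tested genes.

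Of 55 tested genes of ribosome biogenesis 1 rose and 4 fell (9.09% against 6.43% of all genes), with a median of -0.09. Noc3l, a nucleolar factor of the large subunit, stood at 30.6, 34.6, 33.4 and 28.3 CPM in controls 1 to 4 and at 17.7, 17.3, 20.7 and 18.9 CPM in knockouts 2 to 5 (-0.77 ± 0.12, edgeR adjusted p = 0.00728). Tcof1, which supports transcription of ribosomal DNA, fell by 0.64 on the log2 scale, Nop2, a methyltransferase of ribosomal RNA, by 0.61, and Rrp12, a factor of subunit export, by 0.58. Imp3, a component of the small-subunit processome, rose (0.80 ± 0.16). Of 11 tested genes of RNA polymerase I, which transcribes ribosomal DNA, 0 passed in edgeR, 0 had an unadjusted p under 0.05, and DESeq2 called 0. Over all tested genes 6.43% passed in edgeR and 25.8% had an unadjusted p under 0.05.

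Of 20 regulators of these messages and of mTOR signalling 3 rose and 3 fell, 30% of the list against 6.43% of all tested genes. Sesn1 and Sesn2, stress-induced inhibitors of mTORC1, rose by 0.97 ± 0.16 and 1.22 ± 0.25, and Ddit4, another inhibitor, by 1.45 ± 0.23. Tsc1, also an inhibitor of mTORC1, fell by 0.68, Larp1, the repressor of messages with the pyrimidine motif, by 0.44, and Mycn, a transcription factor that activates ribosome genes, by 1.28. Genes that rose and genes that fell were thus both found among inhibitors.

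On the mitochondrial side, 2 of 20 genes of mitoribosome assembly fell and 0 rose (10% against 6.43% of all tested genes in either direction and 2.99% lower). Mterf3, which binds mitochondrial DNA and acts in assembly, stood at 14.2, 15.1, 12.1 and 14.1 CPM in controls 1 to 4 and at 8.92, 9.64, 9.77 and 7.40 CPM in knockouts 2 to 5 (-0.63 ± 0.15, edgeR adjusted p = 0.0256). Dhx30, an RNA helicase of mitochondrial granules, stood at 123, 104, 108 and 98.9 CPM and at 82.0, 78.7, 82.3 and 80.4 CPM (-0.42 ± 0.10, edgeR adjusted p = 0.0258). Of 14 mitochondrial translation factors and of 17 mitochondrial aminoacyl-tRNA synthetases 0 passed in edgeR. An unadjusted p under 0.05 was reached by 2 (14.3%) and 4 (23.5%), against 25.8% of all tested genes. Of these 4 synthetases Lars2 alone was higher, at 133 and 529 CPM in knockouts 3 and 5, against 14.3 to 26.8 CPM in the other libraries. DESeq2 called 1 translation factor lower and 1 synthetase higher, and the authors' deposited comparison has a background of 10.2%. Of 10 tested mitochondrially encoded genes mt-Rnr1, the RNA of the small mitochondrial subunit, rose (0.97 ± 0.17, edgeR adjusted p = 0.00999) and 0 fell. This is 10% of the list against 6.43% of all tested genes. The list median was 0.41, with 9 positive values and 1 negative. An unadjusted p under 0.05 was reached by 6 (60%), all higher, against 25.8% of all tested genes. DESeq2 called 3 as higher, where the authors' deposited comparison has 5.34% of genes higher. Eif3e, Noc3l, Ddit4, Sesn1, Mycn and mt-Rnr1 passed with any 1 library left out, and the other genes of these lists that passed lost the call without at least 1 library.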

How the data were processed

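Total RNA of 8 cortex samples was sequenced by the authors. Per the submitters' processing notes, the tools were FastQC, HISAT, HISAT2, featureCounts and DESeq2 with build GRCm38, without versions; the kit label names a kit for ChIP sequencing, and the strand setting is not given in the sources used here. The authors deposited raw counts, whole numbers that were not normalized. The deposited mean signal (counts divided by size factors), log2 fold change with its error, score (fold change over error) and p-value columns are the authors' own comparison of knockout with control.

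Of 29012 lines 280 repeats were removed. The filter filterByExpr of edgeR removed 13168 genes. The other 15564 were scaled by TMM and compared over all 8 libraries, without covariates, by the robust quasi-likelihood F test of edgeR, and p-values were adjusted over all of them by Benjamini and Hochberg. CPM are TMM-scaled, and levels between genes are per kb of exon union (GENCODE M21). Levels are given with the SD and log2 fold changes with the SE. Fits used edgeR 4.0.16, DESeq2 1.42.0 and limma 3.58.1 under R 4.3.3. The fit was tested on simulated data.

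The members, the lists and the naming rule were chosen with earlier results of these data known. The rule names genes that passed, the 5 most abundant of each set, the 4 of smallest p that did not pass, and the P stalk, Rpsa, Rps6 and paralogue pairs, and up to 4 of each other list. Nop2, Tsc1, Larp1, Nr2c2 and Tcp1 were added after their values were seen. Some genes that the rule takes are not reported here. Listed genes without a match are not analysed here. No column of the table was left unmapped (0).

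Alternatives were limma voom, DESeq2, its size factors within edgeR, upper-quartile factors, all genes unfiltered, genes at 1 CPM or more in 4 libraries, an adjusted p of 0.1, offsets for GC content and length, and each library left out in turn.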

Additional observations from a re-analysis of the deposited data

Results flagged for a closer look

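In 82 groups of 4 libraries, taken from the named members and the sums, 3 held a library set far apart from the others of its group by Dixon's test at the 95% level. Chance flags about 1 in 20 such groups. Knockout 4 held 9.95 CPM of Rplp0, against 28.4 to 29.9 CPM for the rest of its group. Knockout 5 held 12.1 CPM of Rpl3, against 3.86 to 5.24 CPM for the rest. Knockout 4 held 0.702 CPM of Rpl10, whose coding runs all occur in other genes too, against 1.67 to 1.83 CPM for the rest.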

How the results depend on the processing

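No paired analysis was possible because the labels number controls and knockouts without a shared number. Over all genes, where 1001 passed, 1566 did without the filter, 1744 in DESeq2, 2183 at an adjusted p of 0.1, and 128 to 2055 with 1 library left out. Of cytosolic genes (1) 2 passed with upper-quartile factors, 4 without the filter, 5 in DESeq2, 2 in limma voom, 5 at an adjusted p of 0.1, 3 with the trend on GC content and length removed, and 0 to 4 with 1 library left out (0 without control 1, control 2 or knockout 2). Of mitochondrial genes (5) 0 to 6 passed with 1 library left out. Of the companion genes (19) 29 passed at an adjusted p of 0.1 and 6 to 28 with 1 library left out. The fold of the cytosolic to mitochondrial ratio, 1.18, was 1.07 without the 5 most abundant members and 1.146 to 1.23 with 1 library left out. The cytosolic median stayed between 0.02 and 0.25 and the mitochondrial between -0.00219 and 0.062 in all alternatives. Of 863 values of 54 single genes, 91 lost the call and 25 gained it. No gene that passed turned its sign; 14 values of genes that did not pass did, the cause of which was not tested. With 1 library left out, Rpl8 ran from -0.013 to 0.13, Rplp0 from -0.43 to 0.060, Rplp2 from -0.022 to 0.24, Rpl3 from -0.025 to 0.71, Rps6 from -0.15 to 0.17, Rpl10 from -0.083 to 0.40, Rps27 from -0.48 to 0.71 and Rps27l from -0.12 to 0.43. Rps27 was 0.023 with upper-quartile factors. Low counts limit precision: 34 cytosolic and 10 mitochondrial genes averaged under 50 counts per library.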
